A study of Caenorhabditis elegans with 19 samples.

Results

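The genes described are those for ribosomal proteins, taken by name from the authors' annotated tables of LIN-14 peaks and of the comparison between stages: every gene name beginning with rpl, rps, mrpl or mrps and a number, together with rla-0, rla-1 and rla-2. This rule found 59 genes among 18846 gene names in the tables, 26 of the cytoplasmic ribosome and 33 of the mitochondrial ribosome. LIN-14, a nuclear factor of developmental timing, had been profiled by ChIP-seq in whole Caenorhabditis elegans larvae whose lin-14 gene carried GFP at its C-terminal end (allele cc2841), with beads that bind GFP. L1 larvae were taken 8 ± 1 hours after plating on food (5 ChIP and 4 input libraries) and L2 larvae 21 ± 1 hours after it (5 ChIP and 4 input libraries). The authors merged the libraries of a stage before they called peaks, so a peak value has no replicate error, and depth per library is unknown. By the peak names they left out outliers, so the number of libraries behind each list is not known and may differ between stages. Untagged N2 larvae (L1) gave 1 further ChIP library, which is not analysed here, so signal that does not need the tag was not set aside here. The control libraries of the peak calling are not named, so whether the authors set such signal aside cannot be told. Whole larvae mix all cell types, and a site bound in few cells cannot be told apart from one bound weakly in many.

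Ribosomes are built from a large and a small subunit, each an RNA core covered with proteins. The cytoplasmic ribosome makes nearly all proteins of the cell, and its protein genes are short, single-copy in most cases and among the most highly transcribed genes of an animal. Mitochondrial ribosomes have their own set of proteins, encoded in the nucleus and imported, and translate the few respiratory chain subunits encoded in mitochondrial DNA. Many genes of both kinds lie in operons in this worm, where several genes share a promoter, and the tables do not mark operons.

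Few genes of the cytoplasmic ribosome had a LIN-14 peak. A RefSeq gene table lists 83 protein-coding genes of the cytoplasmic ribosome and 71 of the mitochondrial one. In L1, an assigned peak was present for 26 of the 83 cytoplasmic genes (31.3%, 95% Wilson interval 22.4 to 41.9) and for 33 of the 71 mitochondrial genes (46.5%, 35.4 to 58.0), while 69.2% of all protein-coding genes had one. In L2, the numbers were 10 cytoplasmic genes (12%, 6.68 to 20.8) and 9 mitochondrial genes (12.7%, 6.81 to 22.4), against 24.5% of all protein-coding genes. Both classes of ribosomal genes thus had peaks less often than protein-coding genes at large in these lists, and the intervals of the classes overlapped each other in both stages. The intervals cover counting error over genes, which are not replicates, and the difference between the classes was not tested. When a q-value no larger than 1e-10 was required, 10 cytoplasmic (12%) and 10 mitochondrial genes (14.1%) kept an L1 peak, against 30.3% of all protein-coding genes.

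**Figure D1:**
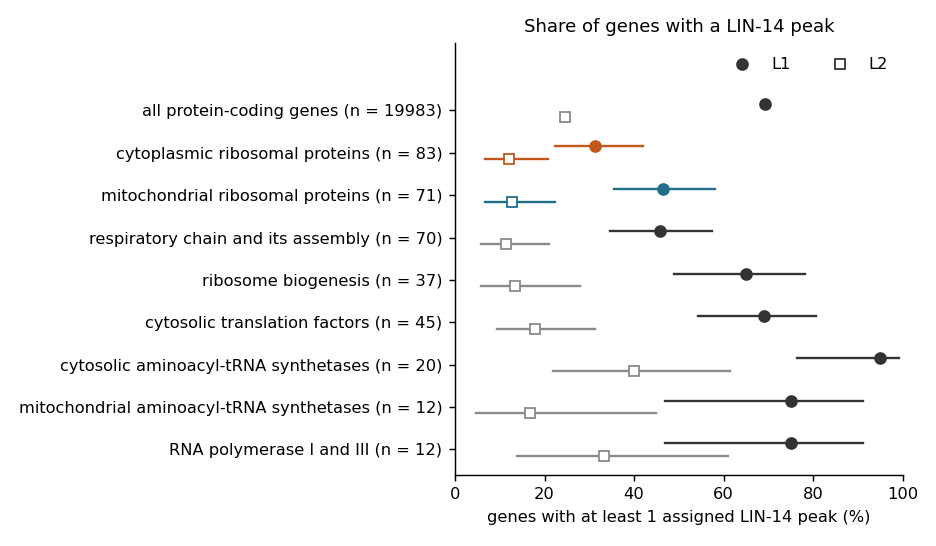
Share of genes with at least 1 assigned LIN-14 peak (x axis, percent) in L1 (filled circles) and L2 (open squares), for all protein-coding genes, the ribosomal classes and other genes of translation and respiration; lines are 95% Wilson intervals and n is the number of genes. The cytoplasmic ribosomal genes lie lowest in L1 at 31.3%, below the 69.2% of all protein-coding genes.

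Over all protein-coding genes, the share with an L1 peak rose with gene length. Across the same bins of length, the cytoplasmic share fell, and the mitochondrial share rose and then fell. The cytoplasmic genes are short (median 754 bp, 276 to 1734), the mitochondrial ones are longer (median 1124 bp), and the median over all protein-coding genes is 2005 bp. Among genes under 1000 bp, an L1 peak was assigned to 24 of 67 cytoplasmic (35.8%), 11 of 28 mitochondrial (39.3%) and 56.3% of all protein-coding genes. Between 1000 and 2000 bp it was 3 of 16 cytoplasmic (18.8%), 15 of 27 mitochondrial (55.6%) and 67.2% of all. The bins by length, and the counts of neighbours, subunits and chromosomes that follow, also take in 1 gene of each class that the tables list under a sequence name. Above 2000 bp it was 8 of 16 mitochondrial genes (50%) and 75.2% of all, and no cytoplasmic gene is that long. In each bin the ribosomal share was below that of all genes of like length. The part of gene length in the gap was not tested.

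Peaks appear to be named by the nearest transcript start, since some inside exons of other genes bear ribosomal names. A peak beside a ribosomal gene can likewise bear another gene's name. Of the 56 cytoplasmic genes without an L1 peak, 47 (83.9%) had a neighbouring protein-coding gene with one, close to the 81.4% of all protein-coding genes without a peak. A neighbour is the next protein-coding gene on either side at any distance. Its peak may therefore lie far from the ribosomal gene, and these counts do not show that a peak beside that gene took another name. For the 37 mitochondrial genes without a peak, 25 (67.6%) had such a neighbour. Non-coding RNA genes are another possible recipient. A non-coding gene, with or without a peak, lay within 1 kb of 31 of the 56 cytoplasmic and only 4 of the 37 mitochondrial genes. Over all protein-coding genes without a peak it was 2640 of 6154. One that had an L1 peak lay within 1 kb of 11 of the 56 cytoplasmic genes (19.6%) and of 0 of the 37 mitochondrial genes, and of 21.3% of all protein-coding genes without a peak. With so few non-coding genes near the mitochondrial ones, the 0 says little about where peaks were assigned.

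By subunit, an L1 peak was assigned to 8 of 31 small-subunit genes (25.8%, 13.7 to 43.2) and 19 of 52 large-subunit genes (36.5%, 24.8 to 50.1) of the cytoplasmic ribosome. In the mitochondrial ribosome, it was 14 of 29 genes named for the small subunit (48.3%) and 20 of 42 for the large one (47.6%). Both subunits were therefore represented in each class, with overlapping intervals. Among cytoplasmic genes without a peak were rps-3 (a protein at the mRNA entry channel), rpl-5 (which binds 5S RNA) and rplp-0 (the base of the stalk that recruits elongation factors). Those examples were chosen after the list was seen. On the X chromosome, both cytoplasmic genes, rpl-11.2 and rpl-25.1, had an L1 peak, as did 76.5% of all protein-coding genes there, and no mitochondrial ribosomal gene lies there. On chromosome IV, 4 of 18 cytoplasmic (22.2%) and 2 of 11 mitochondrial genes (18.2%) had one, beside 59.5% of all protein-coding genes of that chromosome.

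The peaks that were assigned often lay away from the ribosomal gene itself. Of 44 L1 peaks of cytoplasmic genes, 0 covered a transcript start, 6 lay within 1 kb upstream, 14 inside the gene, 11 past its far end and 13 more than 1 kb upstream. For 52 mitochondrial peaks these counts were 2, 11, 15, 11 and 13. Over all 37018 annotated L1 peaks, 10.9% covered a start and 45.4% lay inside the gene, while 13.6% lay past its end and 15.0% more than 1 kb upstream. Short genes leave less room for a peak inside them, and the part of gene length in this pattern was not tested. In the files, the transcripts of rps-8 and mrpl-12 span 16065 and 7616 bp, while RefSeq gives 903 and 761 bp. Other lengths differ too, among them mrps-35 (1979 against 4560 bp in RefSeq) and rpl-12 (317 against 1065 bp). The mrpl-12 peak, 918 bp past the start, was counted as inside the gene but is farther from it than the RefSeq length. That of rps-8, at 897 bp, begins at less than the RefSeq length. Whether the starts are the same in both sources was not checked.

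**Figure D2:**
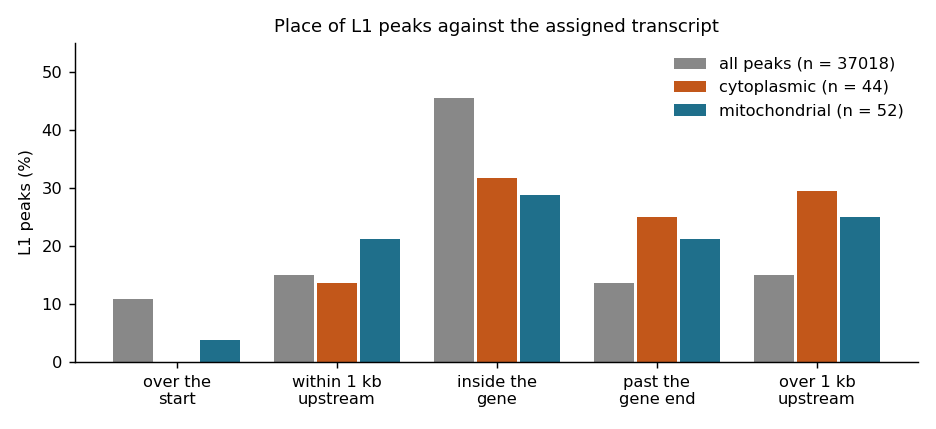
Percentage of L1 peaks (y axis) in each place against the assigned transcript (x axis), for all annotated peaks (grey), peaks of cytoplasmic (orange) and of mitochondrial ribosomal genes (blue). No peak of a cytoplasmic gene covered the start, against 10.9% of all peaks.

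Counted by gene, a peak in the gene or within 1 kb upstream was present in L1 for 17 of 83 cytoplasmic (20.5%, 13.2 to 30.4) and 21 of 71 mitochondrial members (29.6%, 20.2 to 41.0), and for 63.3% of all protein-coding genes. Limited to the start and 1 kb upstream, the counts were 5 (6.02%, 2.6 to 13.3) and 12 (16.9%, 9.94 to 27.3), beside 26.7% of all. The 5 cytoplasmic genes were rpl-3, rpl-14, rpl-25.1, rpl-27 and rps-17. In L2, a peak in the gene or within 1 kb upstream was assigned to 2 cytoplasmic genes (2.41%), rpl-25.1 and rpl-25.2, and to 3 mitochondrial genes (4.23%), mrps-5, mrps-11 and mrpl-32, beside 20.2% of all protein-coding genes. Genes assigned only peaks past their end or more than 1 kb upstream numbered 9 (10.8%) and 12 (16.9%) in L1. Of all protein-coding genes, 69.2% had any L1 peak and 63.3% had one in the gene or within 1 kb upstream.

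The strongest L1 peak of a cytoplasmic gene was assigned to rps-26, a small-subunit protein at the exit of the mRNA channel (chromosome I, 14761410 to 14761749). Its fold enrichment over control was 2.74, which ranked 133 in the list, and it began 1491 bp past the start of a gene 697 bp long. Next came rpl-37, a large-subunit protein, at 2.46 (chromosome III, 3524719 to 3525062), with the peak 3567 bp upstream in exon 8 of 13 of pitp-1. At rpl-13 the peak reached 2.39 (chromosome I, 3789866 to 3790350), past the end of the gene. The rps-27 peak (2.33, chromosome V, 97367 to 97707) was distal intergenic, 6357 bp beyond the start. At rpl-3, whose protein reaches toward the peptidyl transferase centre, the strongest peak (2.24, chromosome III, 3866029 to 3866557) lay 1276 bp upstream. None of these leading peaks lay in its gene or within 1 kb upstream. Of the 10 cytoplasmic genes past the stricter q-value, 3 had the strongest peak there: rps-2 (2.11, 471 bp into the gene), rpl-25.1 (2.04) and rpl-9 (2.04, 37 bp past the start).

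Among mitochondrial genes the strongest L1 peak belonged to mrps-5, a small-subunit protein whose loss is known to lengthen worm lifespan. Its fold enrichment was 2.35 (rank 1539; chromosome V, 12563971 to 12564379), and the peak lay inside the gene, 503 bp past the start. The gene had 2 more L1 peaks upstream, at 472 bp (2.00) and 1089 bp (1.88). The large-subunit gene mrpl-34 followed at 2.33 (chromosome I, 10194175 to 10194519), 943 bp past its start and beyond its end. At mrpl-20 the value was 2.29, in exon 2 of 8 of dmsr-3, a neuropeptide receptor gene. The peaks of mrpl-32 (2.14, past the gene end) and mrpl-19 (2.13, 921 bp upstream) came next. Of the 10 mitochondrial genes past the stricter q-value, mrps-5, mrpl-19, mrps-9 and mrps-30 had that peak in the gene or within 1 kb upstream.

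Taking the strongest peak per gene, the median L1 fold enrichment was 1.71 for the 26 cytoplasmic genes (1.49 to 2.74) and 1.87 for the 33 mitochondrial genes (1.46 to 2.35), and 1.91 over 18651 genes with a peak. A value of 2 or more was reached by 10 cytoplasmic (38.5%) and 9 mitochondrial genes (27.3%), and by 37.8% of all genes with a peak. The 95% intervals of the medians, 1.63 to 2.04 and 1.71 to 1.95, overlapped. Peak widths had medians of 304 bp and 264 bp, close to the 292 bp of all peaks. One broad peak stood out, a stretch of 1978 bp assigned to rpl-38 (fold enrichment 2.19; chromosome V, 15506309 to 15508286) that starts in exon 16 of 25 of C06B8.7.

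**Figure D3:**
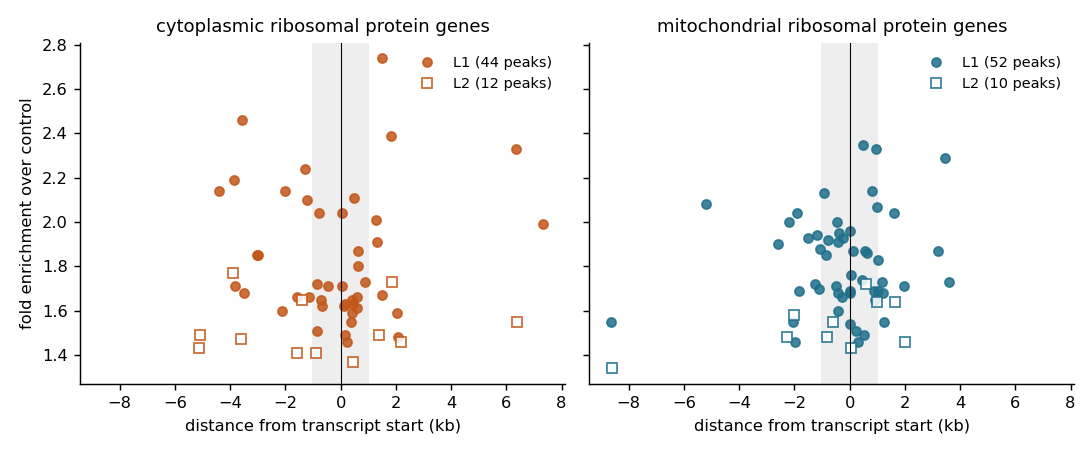
Fold enrichment over control (y axis) against distance from the transcript start (x axis, kb, negative upstream) for each peak of cytoplasmic and mitochondrial ribosomal genes, L1 filled and L2 open; grey marks 1 kb to either side. The highest cytoplasmic values, 2.74 and 2.46, lie outside the grey band, whereas mrps-5 at 2.35 lies within it.

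Most ribosomal genes with a peak had a single one. In L1, 16 of 26 cytoplasmic genes had 1 peak, 4 had 2, 4 had 3, and rpl-37 and rpl-38 had 4 each. The genes with 3 were rpl-3, rpl-25.1, rps-11 and rps-17. Of the mitochondrial genes, 19 had 1 peak, 9 had 2, and mrpl-28, mrpl-53, mrps-5, mrps-11 and mrps-30 had 3. Several of these peaks lay in exons or introns of other genes. By the deposited class they made up 6 of 44 cytoplasmic peaks (13.6%) and 5 of 52 mitochondrial peaks (9.62%), against 4.45% of all L1 peaks. In that class promoter goes before exon and intron, so peaks nearer the start that lie in another gene are not counted. An rpl-38 peak 2988 bp upstream is classed promoter, while a site of the stage comparison 3008 bp upstream is classed in exon 20 of C06B8.7. Besides pitp-1, C06B8.7 and dmsr-3, the hosts were mig-38 (exon 9 of 11, with 2 peaks of rps-11), C09D4.1 (exon 11 of 14, mrpl-24), nhr-19 (intron 2 of 10, mrpl-53) and Y49E10.31 (intron 2 of 3, with 2 peaks of mrpl-15). Among the paralogous pairs, rpl-25.1 and rpl-25.2, which encode the same tunnel-exit protein, both had peaks, of 2.04 and 1.63. Of the rpl-11 pair, whose protein binds 5S RNA, rpl-11.2 had a peak (1.63) and rpl-11.1 had none. How reads shared by near-identical copies were placed was not stated in the labels or headers.

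All 22 L2 peaks of ribosomal genes overlapped an L1 peak by at least 1 bp, 12 of 12 for cytoplasmic and 10 of 10 for mitochondrial genes, and over the whole list 97.8% did. Conversely, 12 of 44 cytoplasmic (27.3%) and 9 of 52 mitochondrial L1 peaks (17.3%) overlapped an L2 peak, near the 20.9% of all L1 peaks. The 19 genes with an L2 peak all had an L1 peak. In L2 the highest cytoplasmic values were at rpl-38 (1.77, 3909 bp upstream in exon 18 of C06B8.7), rpl-13 (1.73), rpl-3 (1.65), rps-27 (1.55) and rpl-33 (1.49). Among mitochondrial genes, mrps-5 again led (1.72), followed by mrpl-53 and mrpl-34 (1.64 each), mrps-16 (1.58) and mrpl-19 (1.48). The medians of the strongest peak per gene were 1.48 for both classes and 1.56 over all genes with an L2 peak. The fold enrichments of L1 and L2 come from separate lists and were not compared with each other.

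The comparison between stages asked how LIN-14 occupancy differed in L2 from L1. The authors' deposited table assigns 31 sites to 23 of the ribosomal genes, 15 sites to 9 cytoplasmic and 16 sites to 14 mitochondrial genes. All 31 carry a negative log2 fold of L2 against L1 in the authors' deposited table, that is, a lower normalised value in L2. Nearly all listed sites do so: of the 10461 in a gene or within 1 kb upstream, 15 had a log2 fold above 0. The sign therefore does not set the ribosomal sites apart. At the authors' FDR below 0.05, their deposited table has 17 of the 31 sites lowered (54.8%), against 41.4% of its 14675 sites. By class, the authors' deposited table shows 9 of 15 cytoplasmic (60%) and 8 of 16 mitochondrial sites (50%) lowered. When the site of highest concentration stood for its gene, the authors' deposited table gave 4 of 9 cytoplasmic genes (44.4%) and 7 of 14 mitochondrial genes (50%) as lowered, and 42.1% of all 10004 genes with a site. These shares are near the background, so no more can be read from them about ribosomal genes than about genes at large. The authors' deposited table holds 18 raised sites in all (0.123%), none at a ribosomal gene. An unadjusted p under 0.05 with a lower L2 value was reached by 25 of the 31 sites (80.6%) and by 64% of all sites in the authors' deposited table, and with a higher one by 0 of the 31. At an FDR below 0.01 the authors' deposited table calls 0 ribosomal genes, beside 1.8% of sites and 1.9% of genes. At an FDR below 0.1, the authors' deposited table calls 8 cytoplasmic and 10 mitochondrial genes, beside 67.9% of sites and of genes. Sites whose FDR exceeds 0.3 are not listed there, and 36 of the 59 genes have no site.

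**Figure D4:**
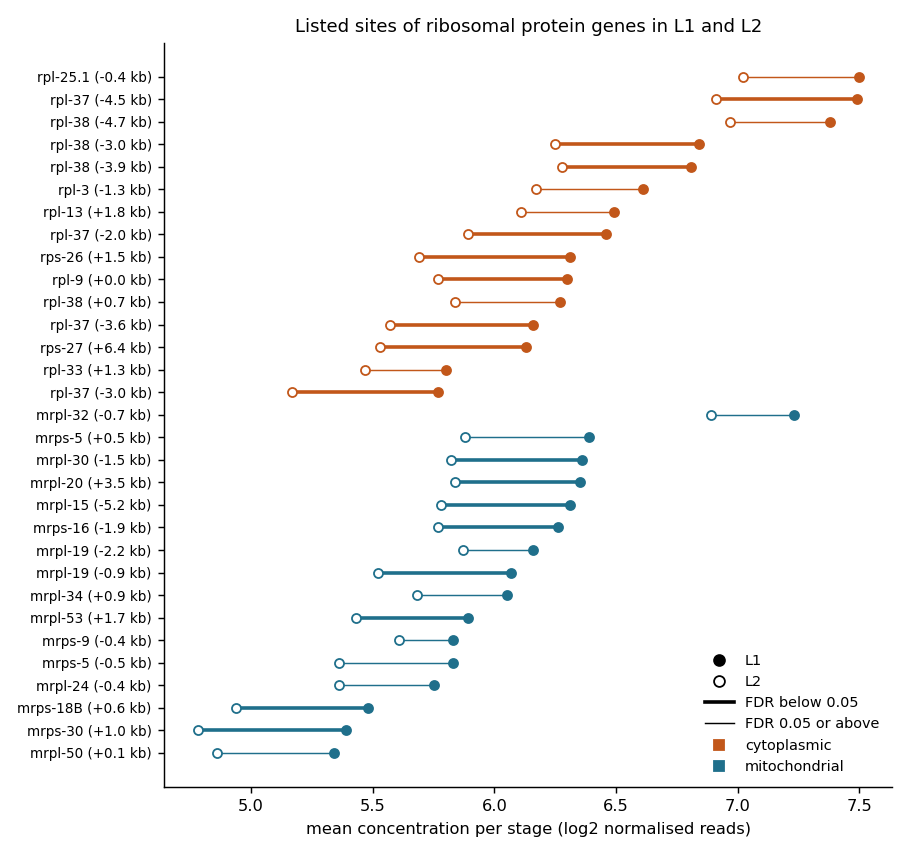
Mean concentration per stage (x axis, log2 normalised reads) in L1 (filled) and L2 (open) at the 31 listed sites, named by assigned gene and distance from its start; thick lines mark an FDR below 0.05, orange cytoplasmic and blue mitochondrial genes. Every L2 value lies below its L1 value, as at nearly all sites of the whole list, and rpl-25.1 has the highest L1 value at 7.5.

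The cytoplasmic sites of lowest FDR lay away from their genes. The rps-27 site stood at a log2 concentration of 6.13 (L1) and 5.53 (L2), which the authors' deposited table gives as a log2 fold of -0.60 (FDR 0.017). The normalised L2 value there was 66.0% of the L1 value, computed from the authors' deposited table, whose normalization is not named. Nearly all listed sites shift the same way (median log2 fold -0.44), and a shift common to the stage was not set apart. Past the end of rps-26, the authors' deposited table has 6.31 for L1 and 5.69 for L2 (log2 fold -0.62, FDR 0.026), the largest drop of the 31 sites. Both sites overlapped a peak in each stage.

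For rpl-37, the authors' deposited table lists 4 sites, all lowered, with log2 folds from -0.60 to -0.57. The 3 in exons 4, 8 and 10 of pitp-1 include the second highest cytoplasmic site, at 7.49 (L1) and 6.91 (L2) by the authors' deposited table. Of the 4 rpl-38 sites, those in exons 18 (-0.54, FDR 0.0253) and 20 (-0.58, FDR 0.0262) of C06B8.7 are lowered according to the authors' deposited table. For the other sites of rpl-38 the authors' deposited table gives -0.41 (FDR 0.0659) and -0.42 (FDR 0.0731), which miss the threshold. The sites of each of these genes lie in 1 neighbourhood and are not independent.

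Of 2 cytoplasmic sites in the gene or within 1 kb upstream, 1 was lowered, at rpl-9, a large-subunit protein, beside 41.1% of all sites so placed in the authors' deposited table. It began 48 bp past the start, and the authors' deposited table has 6.30 for L1 and 5.77 for L2 (-0.53, FDR 0.0389). The one other cytoplasmic site as close, 434 bp upstream of rpl-25.1, has 7.5 for L1 and 7.02 for L2 by the authors' deposited table and misses the threshold (-0.48, FDR 0.0505). The smallest cytoplasmic drops in the authors' deposited table belong to rpl-33 (-0.33, FDR 0.106), rpl-13 (-0.38, FDR 0.0702) and rpl-38 (-0.41). None of these passed, and each of the 3 sites overlapped an L2 peak.

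The mitochondrial site of lowest FDR was that of mrpl-20, inside dmsr-3, for which the authors' deposited table gives 6.35 (L1) and 5.84 (L2), a log2 fold of -0.50 (FDR 0.026). Next, 937 bp upstream of mrpl-19, the authors' deposited table has 6.07 for L1 and 5.52 for L2 (-0.55, FDR 0.032). Farther out, 2195 bp upstream of mrpl-19, a second site with -0.29 (FDR 0.136) missed the threshold of 0.05 used with the authors' deposited table.

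The authors' deposited table also has lowered sites at mrpl-30 (-0.54, FDR 0.0334), mrps-30 (-0.60, FDR 0.0407) and mrpl-15 (-0.53, FDR 0.0436). With mrps-16 (-0.49), mrps-18B (-0.54) and mrpl-53 (-0.46, FDR 0.0474), this makes the 8 mitochondrial sites called from the authors' deposited table. In the gene or within 1 kb upstream lay 9 mitochondrial sites, and by the authors' deposited table those of mrpl-19, mrps-30 and mrps-18B were lowered (33.3%), beside 41.1% of all sites so placed. Neither site of mrps-5 passed, with -0.46 (FDR 0.0537) and -0.51 (FDR 0.135) by the authors' deposited table, although this gene had the strongest mitochondrial peak in each stage. The smallest mitochondrial drops given by the authors' deposited table were at mrps-9 (-0.22, FDR 0.261), mrpl-19 (-0.29) and mrpl-32 (-0.34, FDR 0.0925). The mrpl-32 site had the highest L1 concentration of the mitochondrial sites, with 7.23 for L1 and 6.89 for L2 by the authors' deposited table. The L1 peak under the L2 peak of mrpl-32 was assigned to rpn-3, a proteasome gene, so the same place bears different names in the lists.

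Across sites, the log2 folds of both classes ran within the range of the rest. The authors' deposited table gives medians of -0.54 for the 15 cytoplasmic sites (-0.62 to -0.33), -0.48 for the 16 mitochondrial sites (-0.60 to -0.22) and -0.44 for all sites. With 1 site per gene, both medians computed from the authors' deposited table were -0.48, and that of all genes was -0.44. Standard errors derived from the fold and p of the authors' deposited table had a median of 0.20 per site (0.17 to 0.30). The difference between the medians was not tested. Log2 concentrations for L1 had medians of 6.46 and 6.06 by the authors' deposited table, beside 6.03 over all sites.

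**Figure D5:**
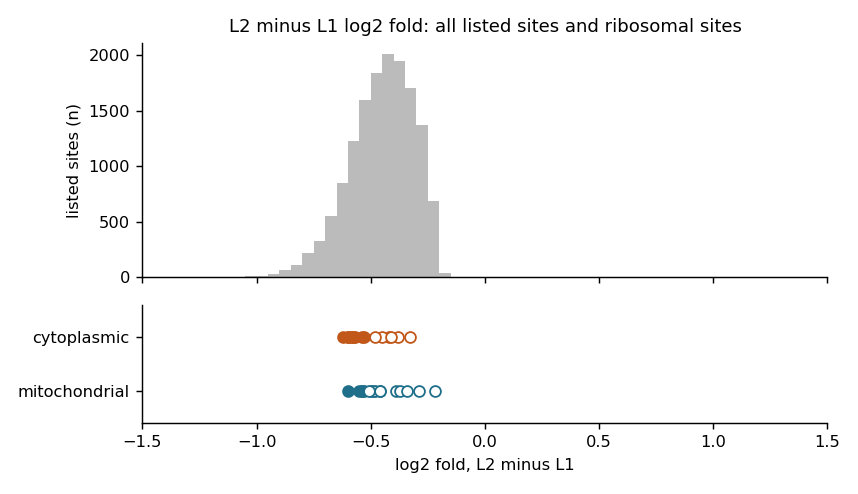
Number of listed sites (y axis, upper panel) by log2 fold of L2 against L1 (x axis, both panels), and below it the cytoplasmic and mitochondrial ribosomal sites, filled where the FDR was below 0.05. The ribosomal sites lie between -0.62 and -0.22, inside the main body of all sites, whose median is -0.44.

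Shares of other genes of translation and of respiration stand beside the 69.2% of all protein-coding genes in L1 and 24.5% in L2. Of 20 cytosolic aminoacyl-tRNA synthetase genes, which charge tRNAs with amino acids, 19 had an L1 peak (95%, 76.4 to 99.1) and 8 an L2 peak (40.0%). Their median length was 3581 bp. Cytosolic translation factors had an L1 peak in 31 of 45 genes (68.9%, median length 2219 bp), the ribosome biogenesis list in 24 of 37 (64.9%) and RNA polymerase I and III genes in 9 of 12 (75%). Mitochondrial tRNA synthetases had one in 9 of 12 genes (75%), and factors of mitochondrial translation and membrane insertion in 5 of 6. The list of respiratory chain genes, short like those of the mitochondrial ribosome (median 1276 bp), had an L1 peak in 32 of 70 (45.7%, 34.6 to 57.3). It also holds 8 assembly factors (cox-10, cox-11 and cox-14 to cox-19), and without them the count was 29 of 62 (46.8%). The biogenesis list also holds the transcription factor genes pes-1 and lpd-2, and without them the count was 24 of 35 (68.6%). The other lists were taken by name with no gene left out. The tRNA synthetases were split into cytosolic and mitochondrial by the number that ends the gene name. Where each protein acts was not checked, so single genes may stand in the wrong list. The gene eif-6 is counted both among the translation factors and in the biogenesis list. None of these differences between lists was tested. Of the partner proteins rack-1 and ubq-2, the first had a peak.

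With 1 site per gene, the authors' deposited table shows 5 of 10 cytosolic tRNA synthetases as lowered, led by cars-1 (-0.67, FDR 0.018), where 42.1% of all genes with a site were. For translation factors the authors' deposited table has 4 of 18 lowered, among them the initiation factor eif-3.B (-0.66) and the poly(A)-binding protein pab-1 (-0.51). Ribosome biogenesis gave 6 of 12 by the authors' deposited table, with nol-2 at -0.67, and RNA polymerase I and III gave 2 of 6, rpoa-1 (-0.57) and rpc-1 (-0.47). The authors' deposited table calls 5 of 14 respiratory chain genes lowered, including cox-5A (-0.67) and sdha-1 (-0.48). The tRNA synthetases listed as mitochondrial had 2 of 3 and mitochondrial translation factors 0 of 2 by the authors' deposited table. The ribosome-bound scaffold gene rack-1 was lowered too according to the authors' deposited table (-0.51, FDR 0.0336). No list held a raised gene by the authors' deposited table.

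The tables list 2 more ribosomal genes under names outside the rule. As C37A2.7, the stalk protein gene rplp-2.1 had an L1 peak of 1.77, 110 bp past its start. As R02F2.9, mrpl-58 had an L1 peak of 2.18, 1135 bp upstream, and the authors' deposited table has a site there that was lowered (-0.57, FDR 0.0229).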

How the data were processed

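The submitters' processing notes name BWA, SAMtools, MACS2, DiffBind and ChIPseeker, with roles, versions and genome build left as not given in the sources used here. According to the deposited peak names, the authors merged the libraries of a stage, left out outliers and called 1 peak list per stage. Each peak has a deposited score, a fold enrichment ratio over control and a -log10 q-value. The authors' deposited comparison gives log2 concentrations, a log2 fold (L2 minus L1), a p-value and an FDR, and lists sites with an FDR up to 0.3.

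From these, genes were counted by name, and calls used the authors' FDR below 0.05. No test of sets or classes was run. All 59 members were matched to a RefSeq gene table of assembly WBcel235, by accession, by symbol, or by hand for rla-1 and rpl-25.2. That table gave the 154 ribosomal genes, lengths and neighbours only. Its list was made by current symbols (rplp and rpsa-1 included). Places used the transcript bounds in the files, and positions are those of the files' build, counted from 1. A standard error was derived as the log2 fold over the normal quantile of its p. Intervals are 95% Wilson for shares and order-statistic for medians. The counting steps were tested on simulated data. Tools were pandas 2.3.3 and NumPy 2.4.6 under Python 3.11.15, with matplotlib 3.10.9 for plots and SciPy 1.17.1 for quantiles.

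The text names, per class, the 5 genes with the highest fold enrichment in each stage, the 5 sites of lowest FDR, the 3 of least negative log2 fold, the 3 genes with the most L1 peaks (ties kept), any gene with a raised site, and all members of a class of 10 or fewer. Others are given as examples. The members and lists were chosen with earlier results of these data known. The labels do not tell whether libraries of a stage came from different cultures, and the authors' p-values then cover only the variation among these libraries, possibly technical.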

Additional observations from a re-analysis of the deposited data

How the results depend on the processing

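No paired analysis was possible because the files hold no values per library, and leaving out a replicate was not possible for the same reason. Under a q-value limit of 1e-10, members with an L1 peak fell to 10 cytoplasmic and 10 mitochondrial genes, beside 30.3% of all protein-coding genes. Under a limit of 1e-05, members with an L2 peak fell to 3 (3.61%) and 2 (2.82%), beside 6.1% of all protein-coding genes. With peaks within 1000 bp of the start, members with an L2 peak fell to 2 and 3, for which no share over all genes is at hand. The distance limit put the cytoplasmic median L2 fold enrichment at 1.39. The authors' deposited table calls 0 members lowered in each class below an FDR of 0.01 (1.9% of all genes) and 8 cytoplasmic members below 0.1 (67.9% of all genes), and 25 of the 31 member sites have an unadjusted p under 0.05 (64% of all sites). Limited to sites within 1000 bp of the start, the authors' deposited table calls 1 cytoplasmic and 2 mitochondrial members lowered. Fewer members have a site that close. No share over all genes is at hand for this limit, so nothing about ribosomal genes is read from these counts. The causes were not tested. The other alternatives, on the peak or site that stands for a gene, on promoter classes and on a reciprocal overlap of 50%, moved no count past 1.5 times and changed no direction. Leaving out listed genes of another role, an alternative chosen after seeing the data, moved the L1 counts of the biogenesis and respiratory lists from 24 to 24 and from 32 to 29. Depth per library is unknown, so whether weak sites were missed in L2 cannot be told.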
